A study of Mus musculus with 26 samples.

Results

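The collagen genes were taken as every gene on the array whose symbol is Col followed by a number, the letter a and a number, each represented by its probe of highest mean level. There were 37 of them among 16593 genes with a probe, of which 11 are fibrillar, 8 belong to basement membranes and 18 are other collagens. The rule used gene symbols alone, so no measured value chose the members. Bead arrays from Illumina were run on RNA of 13 lines of mouse cells, each with 2 arrays called biological replicates in the labels, and nothing there says how those were separated. The 4 iPSC[GSC] clones are induced pluripotent stem cells from germline stem cells: iPSC[GSCneonatal]#1 and #2 at day 10, and iPSC[GSCadult]#1 and #2 at day 40. The 4 gPSC clones, pluripotent cells that arise in germline stem cell cultures without added factors, are gPSC[GSCneonatal]#1 and #2 and gPSC[GSCadult]#1 and #2 at the same days. The line iPSC[MEF] is labelled Tet-4F and was made from embryonic fibroblasts, and ESC are embryonic stem cells. The starting cells are GSC[neonatal] and GSC[adult], cultured germline stem cells of day 10 and day 40, and MEF, embryonic fibroblasts. All 13 lines carry the strain label OG2, a mouse with an Oct4-GFP transgene. Each line is a single clone or culture, and the labels do not name the factors used for iPSC[GSC].

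Collagens are secreted matrix proteins whose chains wind around each other in a helix. Fibrillar collagens assemble into the fibres of connective tissue and are made in bulk by fibroblasts, while type IV collagen forms the sheet of basement membranes, which the earliest endoderm of the embryo lays down in quantity. The other collagens decorate fibres, form beaded filaments, anchor epithelia or span the cell membrane.

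Of 25697 probes, an array detected 9984 at the least and 12081 at the most. The lowest counts, 9984 and 10130, were those of the MEF arrays. A probe counted as detected at a detection p under 0.01, and the 9840 genes with a probe detected on at least 2 arrays were kept. The median signal of probes with a detection p over 0.5, a measure of background, was 79.4 to 83.2 on iPSC[GSC] arrays, 80.7 to 88.7 on gPSC, 80.6 to 87.5 on GSC and 105 to 113 on MEF arrays, and its part in the differences was not tested. On the MEF arrays the 95th percentile of signal was 26.2 and 24.9 times that median, against 8.86 to 11.3 times on the other arrays. The part of this gap was not tested either. The mean log2 level of 11 pluripotency markers was 9.53 to 10.83 in the 10 pluripotent lines, 6.46 and 6.70 in the GSC lines and 4.76 in MEF. That of 11 fibroblast markers (of 16 listed) was 4.99 to 8.34 in the pluripotent lines, 6.39 in GSC[neonatal], 6.01 in GSC[adult] and 8.59 in MEF, with a summed signal of 418 to 9211, 1430, 941 and 13940 in that order. The highest pluripotent line for these markers was gPSC[GSCadult]#2, with all 11 detected on both arrays, and the lowest was iPSC[GSCneonatal]#1, with 2. A list of 11 endoderm markers, with Sparc, Dab2, Lama1 and Pdgfra, shares Pdgfra with the fibroblast list. Its summed signal was 783 to 4121 in the pluripotent lines and highest in MEF, at 8961, so that sum is not particular to endoderm. Its mean log2 level, used in the correlations below, was 5.60 to 6.98 in the pluripotent lines and 6.85 in MEF, where 6 of the 11 were detected on both arrays. The lines gPSC[GSCneonatal]#2 and iPSC[MEF], which differ in their labels, stood apart by their likeness. The array-to-array correlation between them was 0.9945 to 0.9957, against 0.9942 to 0.9969 between the arrays of a line, and 11 genes were at least 2-fold apart, against 116 to 1763 in the other 44 pairs of pluripotent lines. Among the kept collagens 0 were 2-fold apart between them, and the largest gap was 0.40 on the log2 scale. The files do not settle whether either line is labelled as intended, so every value of these 2 lines carries that limit. Counts of collagens past the threshold and the correlations, except those with endoderm markers, are also given without gPSC[GSCneonatal]#2 where it enters them.

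Of the 37 collagens 23 were kept, namely 8 fibrillar, 5 basement membrane and 10 other ones. The remaining 14 were detected on no array: Col10a1, Col11a1, Col13a1, Col14a1, Col19a1, Col24a1, Col27a1, Col28a1, Col4a3, Col4a4, Col4a6, Col6a6, Col8a2 and Col9a3. Another 7 collagen genes had no probe and are not analysed here (Col12a1, Col20a1, Col22a1, Col6a3, Col6a4, Col6a5 and Col8a1). Of those kept, 8 were detected on all 26 arrays. Col5a2 passed the filter through the MEF arrays alone. Col15a1 and Col4a5, detected on both MEF arrays and 1 pluripotent array each, would not have passed without MEF. No MEF array detected 7 of the kept collagens. Col11a2, Col17a1, Col26a1, Col9a1, Col9a2 and Col23a1 were detected on pluripotent arrays alone, Col23a1 only on the 2 of gPSC[GSCadult]#2. For such genes the filter favours a higher level in the lines that detected them. Counts over the 23 therefore describe the genes that passed the filter and not the family.

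**Figure D1:**
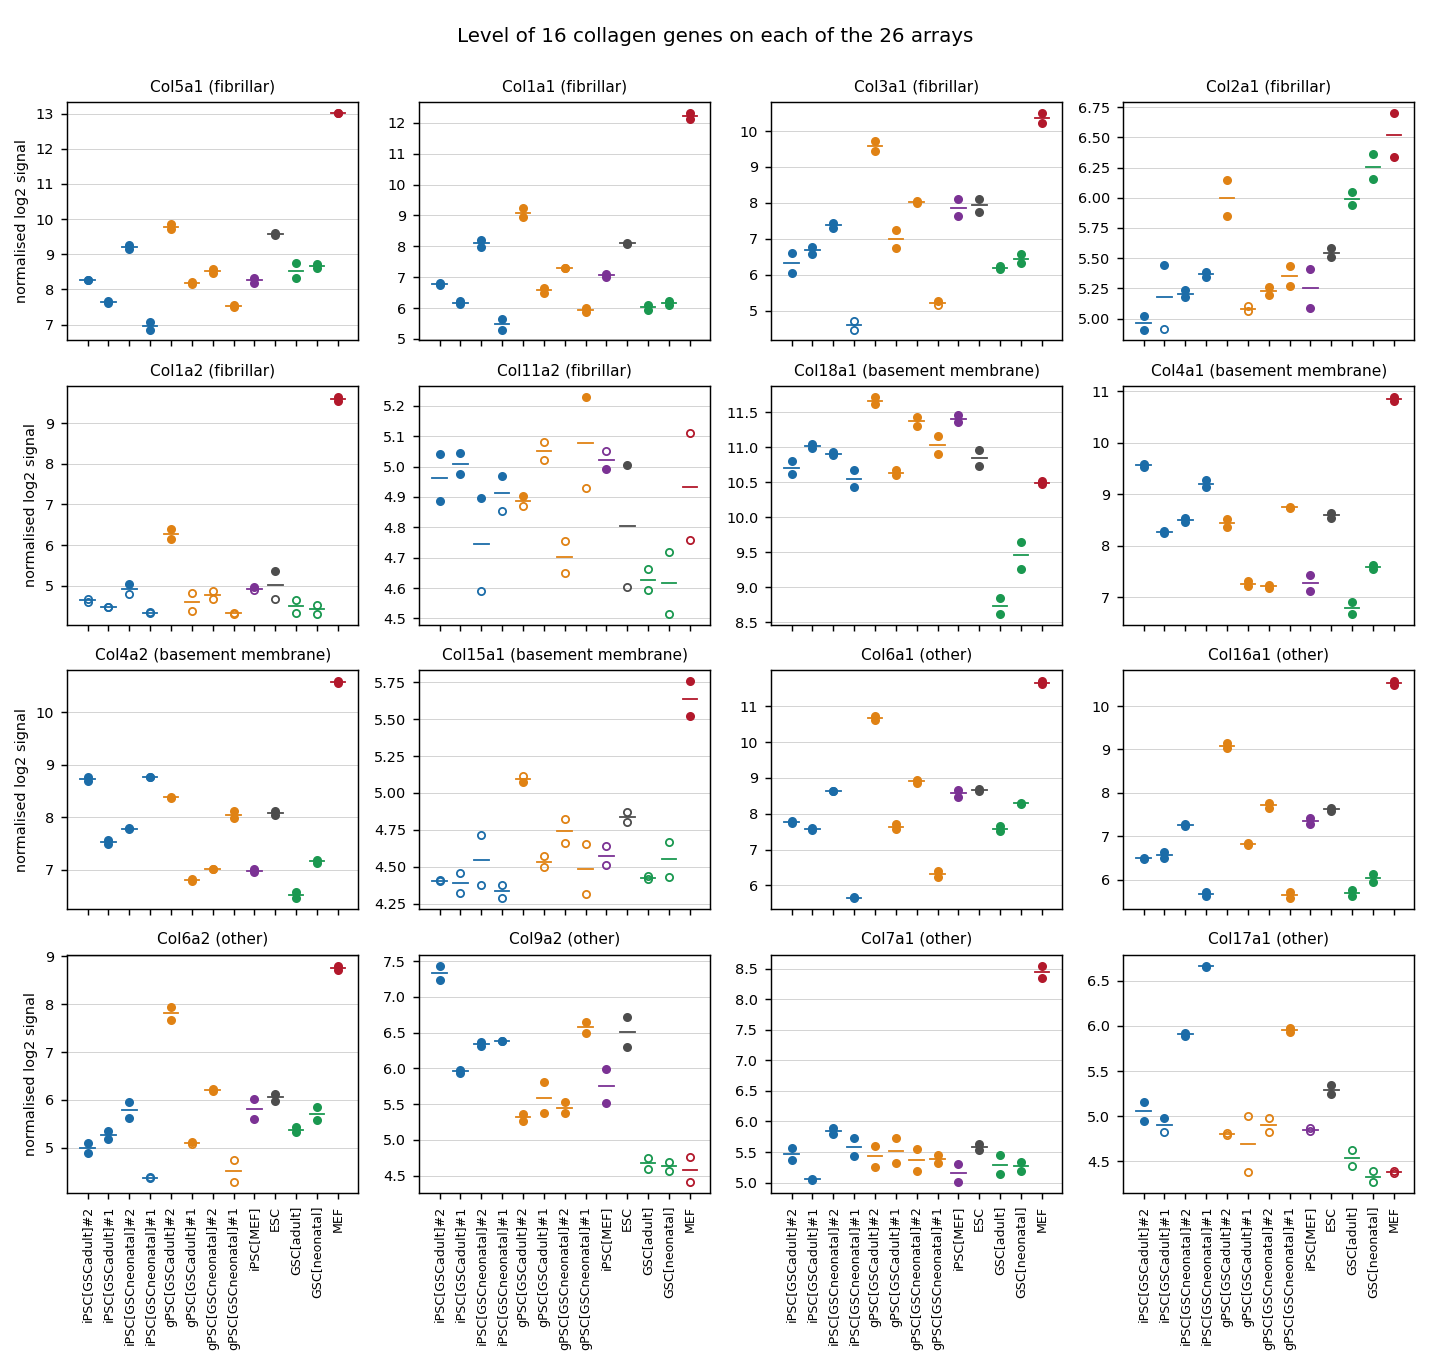
Normalised log2 signal of 16 kept collagens, the 6 fibrillar, 4 basement membrane and 6 other ones of highest mean, with the 13 lines along each horizontal axis (pluripotent lines left, GSC and MEF right) and a point for each of the 2 arrays of a line. Open points had a detection p of 0.01 or more; each panel has its own vertical scale. The MEF points lie above all others for most fibrillar collagens, and the MEF mean lies below every pluripotent line mean for Col9a2 and Col17a1.

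Among the fibrillar collagens Col5a1 and Col1a1 were detected on every array and were far higher in MEF than in any other line. Col5a1 encodes a chain of type V collagen, which starts the assembly of fibres. Its log2 level ran over the 8 iPSC[GSC] arrays from a lowest of 6.86 through a median of 7.97 to a highest of 9.26, and over the 8 gPSC arrays from 7.49 through 8.35 to 9.85. It was 8.33 and 8.19 on the iPSC[MEF] arrays, 9.55 and 9.60 in ESC, 8.73 and 8.60 in GSC[neonatal], 8.74 and 8.32 in GSC[adult], and 13.02 and 13.01 in MEF. The GSC levels fell inside the range of the pluripotent lines, and the MEF arrays stood 3.23 above the highest pluripotent line, gPSC[GSCadult]#2.

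Col1a1 encodes a chain of type I collagen, the main collagen of skin, tendon and bone. Its log2 level had a lowest, median and highest value of 5.31, 6.49 and 8.22 over the iPSC[GSC] arrays and of 5.87, 6.97 and 9.23 over the gPSC arrays. It stood at 7.01 and 7.11 in iPSC[MEF], 8.09 and 8.11 in ESC, 6.09 and 6.25 in GSC[neonatal], 6.11 and 5.95 in GSC[adult], and 12.33 and 12.13 in MEF. Again the MEF arrays overlapped with no other line, and the pluripotent lines spanned 12.3-fold from iPSC[GSCneonatal]#1 to gPSC[GSCadult]#2.

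Col1a2, the partner chain of Col1a1, was detected on both MEF arrays (9.55 and 9.64) and both gPSC[GSCadult]#2 arrays (6.14 and 6.40). Elsewhere it was detected on 3 single arrays, of iPSC[GSCneonatal]#2, ESC and iPSC[MEF], at 4.95 to 5.36. Its low levels in most lines are near background, so the size of differences among them is compressed. Col5a2, a partner of Col5a1, was detected in MEF only, at 8.06 and 8.24, and lay between 4.17 and 4.85 on the other arrays.

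Col3a1, the type III chain of vessel walls and skin, spread most among the fibrillar collagens within the pluripotent lines. The lowest, median and highest log2 levels were 4.47, 6.58 and 7.45 in iPSC[GSC] and 5.15, 7.62 and 9.73 in gPSC. They were 7.63 and 8.10 in iPSC[MEF], 7.76 and 8.10 in ESC, 6.31 and 6.58 in GSC[neonatal], 6.16 and 6.24 in GSC[adult], and 10.23 and 10.51 in MEF. The clone gPSC[GSCadult]#2, at 9.45 and 9.73, came closest to MEF, while Col3a1 was not detected on either array of iPSC[GSCneonatal]#1 and on 1 array of gPSC[GSCneonatal]#1. The span over the 10 lines was 31.9-fold, and the MEF mean lay 0.78 above the highest of them.

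Col2a1, the cartilage fibre collagen, followed another order. It was 4.91, 5.21 and 5.44 (lowest, median and highest) in iPSC[GSC], 5.06, 5.27 and 6.15 in gPSC, 5.41 and 5.09 in iPSC[MEF], and 5.51 and 5.58 in ESC. The GSC arrays were at 6.36 and 6.15 (neonatal) and 6.05 and 5.94 (adult), and the MEF arrays at 6.71 and 6.34. Only gPSC[GSCadult]#2, at 5.85 and 6.15, overlapped with GSC. Col11a2, a minor cartilage collagen, and Col5a3, a further type V chain, stayed close to background, and no pluripotent line mean of them differed from another by more than 0.38 on the log2 scale.

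To show the sequences at the starts of genes described here, promoter windows of 250 bases before to 50 after the annotated start were taken from RefSeq on assembly GRCm38.p6, which held a window for 30 of the 37 collagens and 19 of the 23 kept ones. The windows of Col5a1 (chr2:27886175-27886474, plus strand) and Col1a2 (chr6:4505368-4505667, plus strand) are shown as fibrillar genes highest in MEF, with matches to the GC box GGGCGG and the CCAAT box CCAAT on either strand in capitals.
Col5a1: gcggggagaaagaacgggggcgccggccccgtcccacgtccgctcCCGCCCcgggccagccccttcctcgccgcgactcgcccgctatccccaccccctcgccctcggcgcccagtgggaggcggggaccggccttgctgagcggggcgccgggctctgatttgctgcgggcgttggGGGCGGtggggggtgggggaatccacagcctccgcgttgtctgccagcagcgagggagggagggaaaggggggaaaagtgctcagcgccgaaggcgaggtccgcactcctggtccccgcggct
Col1a2: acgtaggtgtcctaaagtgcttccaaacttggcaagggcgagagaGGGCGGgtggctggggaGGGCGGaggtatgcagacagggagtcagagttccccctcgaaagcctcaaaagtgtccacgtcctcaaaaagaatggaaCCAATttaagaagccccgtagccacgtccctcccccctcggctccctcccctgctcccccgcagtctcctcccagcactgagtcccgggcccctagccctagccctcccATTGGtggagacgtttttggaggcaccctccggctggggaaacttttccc
The Col5a1 window holds 2 matches to GGGCGG and 0 to CCAAT, and the Col1a2 window holds 2 of each. Among all 32851 windows 35.7% hold GGGCGG and 37.4% hold CCAAT, against 14 and 11 of the 19 kept collagens, and the TATA box TATAAA occurs in 13.6% of windows and in 3 of the 19. None of the printed matches overlap, and a match is only a description of the sequence.

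The basement membrane collagens split into the type IV chains and Col18a1. Col4a1 and Col4a2 encode the type IV chains present in nearly all basement membranes. Col4a1 had lowest, median and highest log2 levels of 8.25, 8.83 and 9.59 in iPSC[GSC] and of 7.19, 7.84 and 8.75 in gPSC. The arrays of iPSC[MEF] gave 7.43 and 7.12, ESC 8.64 and 8.54, GSC[neonatal] 7.63 and 7.55, GSC[adult] 6.92 and 6.68, and MEF 10.81 and 10.88. Every iPSC[GSC] array lay above every GSC array, whereas the gPSC clones gPSC[GSCneonatal]#2 (7.19 and 7.24) and gPSC[GSCadult]#1 (7.22 and 7.31) lay between the 2 GSC lines. The highest pluripotent line was iPSC[GSCadult]#2 and the lowest gPSC[GSCneonatal]#2, 5.10-fold apart.

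Col4a2 kept nearly the same order at its own level. It ran from 7.49 through 8.24 to 8.77 in iPSC[GSC] and from 6.79 through 7.51 to 8.39 in gPSC. It was 7.02 and 6.95 in iPSC[MEF], 8.12 and 8.05 in ESC, 7.18 and 7.13 in GSC[neonatal], 6.57 and 6.46 in GSC[adult], and 10.59 and 10.55 in MEF. The MEF mean exceeded the highest pluripotent line by 1.80 for Col4a2 and 1.28 for Col4a1. The genes lie head to head on chromosome 8, with starts 21 bases apart on opposite strands. Their windows (Col4a1, chr8:11312777-11313076, minus strand; Col4a2, chr8:11312555-11312854, plus strand) are shown because the levels of both genes kept a similar order over the lines, with the 78 shared bases in capitals.
Col4a1: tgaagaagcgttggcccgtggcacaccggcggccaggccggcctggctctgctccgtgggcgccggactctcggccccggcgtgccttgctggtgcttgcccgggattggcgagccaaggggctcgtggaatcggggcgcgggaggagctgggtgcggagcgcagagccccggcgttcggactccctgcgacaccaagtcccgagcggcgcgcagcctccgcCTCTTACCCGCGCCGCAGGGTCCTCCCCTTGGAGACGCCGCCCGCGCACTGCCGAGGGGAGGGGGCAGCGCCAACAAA
Col4a2: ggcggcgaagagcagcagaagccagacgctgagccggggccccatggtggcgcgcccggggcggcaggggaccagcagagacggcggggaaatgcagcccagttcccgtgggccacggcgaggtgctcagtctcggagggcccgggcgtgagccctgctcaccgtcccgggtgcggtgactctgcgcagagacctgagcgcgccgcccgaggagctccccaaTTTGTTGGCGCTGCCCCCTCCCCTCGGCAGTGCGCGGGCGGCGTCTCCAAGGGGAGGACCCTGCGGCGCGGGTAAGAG
The Col4a1 window holds 1 match to GGGCGG and 1 to CCAAT, and the Col4a2 window 3 and 1, on either strand. The GGGCGG match of Col4a1 lies in the shared stretch, where the Col4a2 window holds it on the opposite strand.

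Col18a1, a proteoglycan of basement membranes and the source of endostatin, was detected on every array and was higher in each pluripotent line than in either GSC line. Its log2 level had a lowest, median and highest value of 10.43, 10.84 and 11.05 in iPSC[GSC] and of 10.60, 11.23 and 11.72 in gPSC. It was 11.46 and 11.36 in iPSC[MEF], 10.96 and 10.74 in ESC, 9.65 and 9.27 in GSC[neonatal], 8.84 and 8.62 in GSC[adult], and 10.52 and 10.47 in MEF. No GSC array reached the lowest pluripotent array, while the MEF mean of 10.49 lay just under the lowest pluripotent line mean of 10.55 (iPSC[GSCneonatal]#1), with overlapping arrays. The span of 2.17-fold over the pluripotent lines was the smallest among the 8 collagens detected on all arrays except Col7a1. Its other kept probes differ in size: in iPSC[MEF] against MEF the log2 differences were 0.92 for the probe used, and 1.25 and −0.16 for the other probes.

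Col15a1, a relative of Col18a1, was detected on both MEF arrays (5.76 and 5.52) and 1 array of gPSC[GSCadult]#2. Col4a5, a type IV chain best known from the kidney filter, was detected on both MEF arrays (7.03 and 7.12) and 1 array of gPSC[GSCadult]#2 (5.08). Both were at background on the other 23 arrays.

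Of the other collagens, the beaded-filament chains Col6a1 and Col6a2 and the fibre-associated Col16a1 had wide spreads among pluripotent lines. Col6a1 had lowest, median and highest log2 levels of 5.65, 7.68 and 8.64 in iPSC[GSC] and of 6.24, 8.28 and 10.73 in gPSC. It stood at 8.67 and 8.47 in iPSC[MEF], 8.70 and 8.63 in ESC, 8.30 and 8.27 in GSC[neonatal], 7.65 and 7.52 in GSC[adult], and 11.70 and 11.61 in MEF. The span of 32.4-fold over the 10 lines, from iPSC[GSCneonatal]#1 to gPSC[GSCadult]#2, was the widest of the 23 kept collagens, and the largest gap between the arrays of any pluripotent line was 0.20. The MEF mean exceeded gPSC[GSCadult]#2 by 0.98.

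Col6a2 had the same extreme lines, with 4.36, 5.13 and 5.96 in iPSC[GSC] and 4.27, 5.65 and 7.94 in gPSC. The arrays of iPSC[MEF] gave 6.01 and 5.59, ESC 6.12 and 5.98, GSC[neonatal] 5.84 and 5.57, GSC[adult] 5.32 and 5.42, and MEF 8.81 and 8.73. It was undetected on both arrays of iPSC[GSCneonatal]#1 and gPSC[GSCneonatal]#1 and on 1 of gPSC[GSCadult]#1. Col16a1 had 5.64, 6.50 and 7.27 in iPSC[GSC] and 5.58, 7.25 and 9.15 in gPSC. It was 7.42 and 7.28 in iPSC[MEF], 7.59 and 7.66 in ESC, 5.95 and 6.13 in GSC[neonatal], 5.76 and 5.62 in GSC[adult], and 10.48 and 10.57 in MEF. For both genes gPSC[GSCadult]#2 was the pluripotent line nearest to MEF.

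Col9a2, a type IX chain that coats cartilage fibres, was detected on all 20 pluripotent arrays and on no GSC or MEF array. Its levels were 5.93, 6.37 and 7.44 (lowest, median and highest) in iPSC[GSC], 5.26, 5.45 and 6.65 in gPSC, 5.52 and 6.0 in iPSC[MEF], and 6.31 and 6.72 in ESC. The undetected arrays read 4.41 to 4.76. Col17a1, a membrane collagen of the plates that fasten skin epithelium, was highest in iPSC[GSCneonatal]#1 (6.65 and 6.67), gPSC[GSCneonatal]#1 (5.93 and 5.97) and iPSC[GSCneonatal]#2 (5.92 and 5.89). It was undetected in all GSC and MEF arrays, in iPSC[MEF] and in the other 3 gPSC clones. Col26a1 was detected on 12 arrays, all pluripotent, with the highest levels in ESC (5.94 and 5.91).

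Col7a1, which forms the fibrils that anchor skin to its base, was 8.35 and 8.55 in MEF and lay between 5.0 and 5.89 on every other array. Its line means spanned 0.78 on the log2 scale over the pluripotent lines, and the largest gap between arrays of a line was 0.41. The membrane collagens Col23a1 and Col25a1 and the type IX chain Col9a1 were each detected on 2 arrays and are given only in the counts.

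Set against the 10 pluripotent lines, the MEF mean lay above all of them for 16 of the 23 kept collagens, below all for 4 (Col17a1, Col18a1, Col26a1 and Col9a2) and within their range for 3. Of the 16, Col9a1 was detected on no MEF array and Col5a3 on 1, and Col5a2 was kept through MEF alone. Col15a1 and Col4a5, also among the 16, would not have passed the filter without MEF. Among all 9840 genes 29.3% were above and 35.9% below. The mean of each GSC line lay below all 10 for 5 collagens (Col11a2, Col17a1, Col18a1, Col26a1 and Col9a2) and above for 0, against 24.2% and 28.3% of all genes. Of the collagens named as below, Col11a2, Col17a1, Col26a1 and Col9a2 were kept through pluripotent arrays alone. The filter therefore favoured their low position in GSC and MEF, and the shares of all genes are no fair measure for them.

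The first comparison asks how collagen genes differed between a pluripotent line from fibroblasts and fibroblasts. In iPSC[MEF] 13 of 23 kept collagens were lower than in MEF and 0 were higher at a limma adjusted p under 0.05, against 15.1% of all genes lower and 16.8% higher (31.9% in either direction). The lower ones were 5 of 8 fibrillar, 4 of 5 basement membrane and 4 of 10 other collagens. The median log2 difference of the 23 was −2.51, beside 0.08 over all genes. The largest differences were those of Col1a1 (−5.16 ± 0.89, SE; limma adjusted p = 9.66e-05), Col5a1 (−4.76 ± 0.70; 1.72e-05), Col1a2 (−4.67 ± 0.63; 5.23e-06) and Col5a2, which was at least 8.73-fold lower. Col5a2 is among the 13, but it was kept through the MEF arrays alone, so its direction followed from the filter. Col15a1 and Col4a5, among the lower basement membrane collagens, would not have passed the filter without MEF, so it favoured their direction too. "At least" marks a gene whose arrays on the lower side were all undetected, where the detection limit stands in for its level. Col6a1 was lower by 8.5-fold (log2 −3.09 ± 1.07; limma adjusted p = 0.0295). Col3a1 differed by −2.51 ± 1.13 and did not pass (limma adjusted p = 0.0962).

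Fibroblast marker genes were lower in iPSC[MEF] for 7 of 11 and higher for 1, Lum (3.54). Their part in the collagen differences was not tested, and in such bulk RNA fewer cells of a type and less RNA per cell cannot be told apart. The comparison has 1 line a side, and its test borrows the spread between lines from the other cell types. With 1 array per line the count of lower collagens was 8 without replicate 1 and 7 without replicate 2, and Col1a1 then had a limma adjusted p of 0.057 and 0.0691.

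The comparison of GSC with MEF shares the MEF arrays with the one above, and its values are given beside it without being set against it. In GSC 14 of 23 collagens were lower than in MEF and 0 higher, against 20.6% and 25.4% of all genes (46% in either direction). They were 5 of 8 fibrillar, 5 of 5 basement membrane and 4 of 10 other collagens, with a median log2 difference of −2.79 over the 23, beside 0.09 over all genes. Col5a2, kept through the MEF arrays alone, could only lie on the lower side here too. Col15a1 and Col4a5, among the 5 basement membrane collagens, were detected on no GSC array and would not have passed the filter without MEF. Their direction therefore followed from the filter as well. Col1a1 differed by −6.13 ± 0.77 (limma adjusted p = 7.85e-07) and Col16a1 by −4.66 ± 0.66 (4.21e-06). Col1a2 was at least 26.1-fold lower (6.46e-08), and Col5a1 was 21.4-fold lower (log2 −4.42 ± 0.61; 2.68e-06). Col18a1 differed by −1.40 ± 0.38 (limma adjusted p = 0.00409), with −0.68 and −0.85 for its other probes. Of 11 fibroblast markers 7 were lower in GSC and 0 higher, and their part was not tested. Scaling arrays to a common median without quantile normalisation moved the median of all genes to −0.34 for GSC against MEF and to −0.39 for iPSC[MEF] against MEF, and those collagen medians to −3.45 and −3.29.

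**Figure D2:**
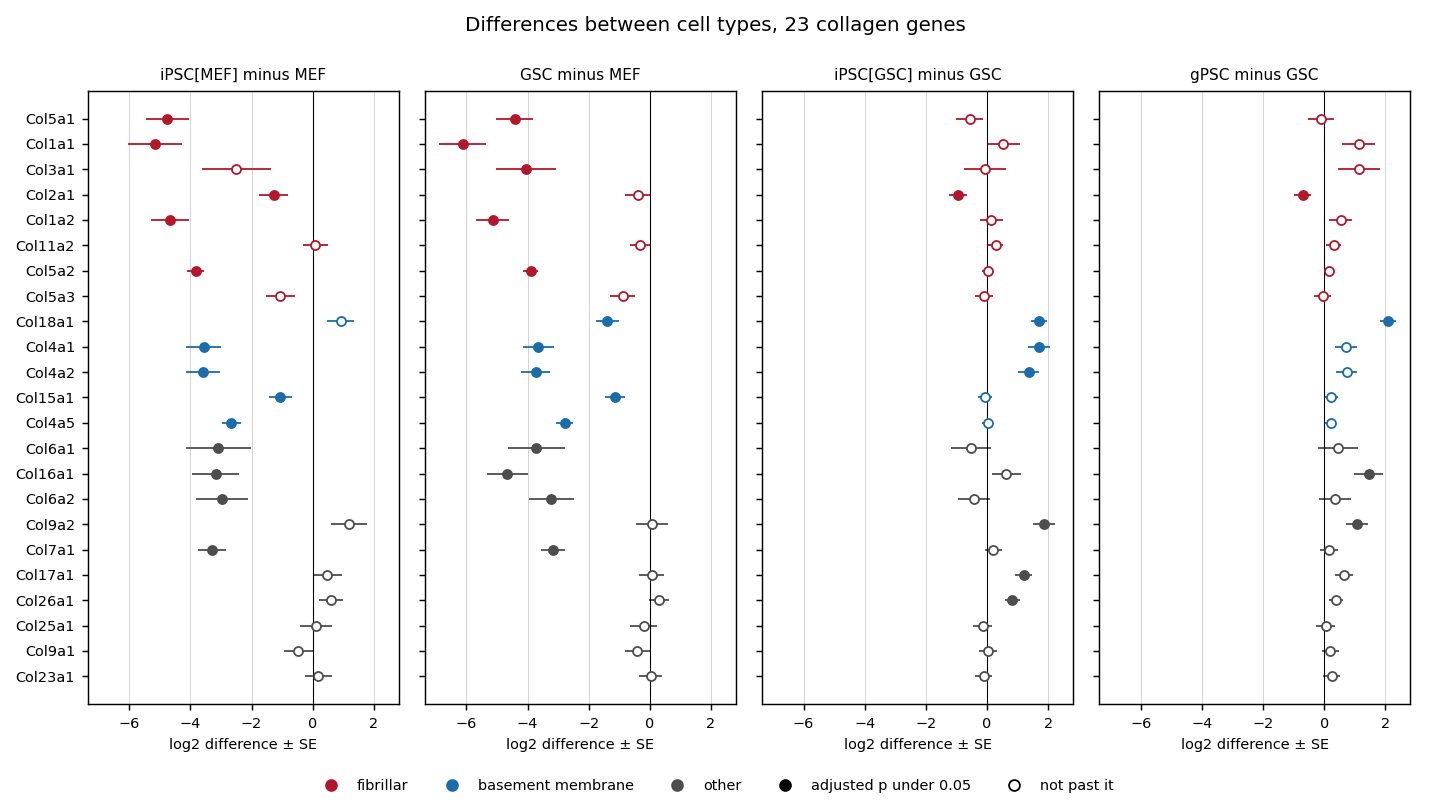
Log2 differences (± SE, horizontal axis) of the 23 kept collagens in comparisons of cell types, by class. Filled points passed a limma adjusted p under 0.05; fibrillar collagens other than Col11a2, and the type IV collagens, lie left of 0 in both comparisons with MEF, and Col18a1 and Col9a2 right of 0 in both comparisons with GSC.

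Against germline stem cells the collagens that passed were mostly of basement membranes and of the other class. In iPSC[GSC] 6 of 23 collagens were higher than in GSC and 1 was lower, against 22.4% and 25.6% of all genes, so the share of collagens passing was below that of all genes (48% in either direction). The 6 were Col9a2 (at least 3.06-fold; limma adjusted p = 0.000188), Col18a1 (log2 1.70 ± 0.27; 1.36e-05), Col4a1 (1.69 ± 0.36; 0.00042), Col4a2 (1.37 ± 0.34; 0.00188), Col17a1 (at least 1.67-fold; 0.00147) and Col26a1 (at least 1.41-fold; 0.00539). Of these, Col9a2, Col17a1 and Col26a1 were detected on no GSC array and kept through pluripotent arrays alone, so their direction followed from the filter. Col2a1 was lower by 1.93-fold (log2 −0.95 ± 0.29; limma adjusted p = 0.00984). None of the other 7 fibrillar collagens passed, with 0.53 ± 0.54 for Col1a1 and −0.57 ± 0.43 for Col5a1, and Col6a1 (−0.53 ± 0.65) did not pass either. Of 11 endoderm markers 7 were higher and 1 lower in iPSC[GSC], and their part was not tested. Col4a2 no longer passed without GSC[adult] (limma adjusted p = 0.0751) and Col2a1 no longer without GSC[neonatal] (0.101).

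The comparison of gPSC with GSC shares the GSC arrays. In gPSC 3 of 23 collagens were higher and 1 lower, against 21.2% and 25.6% of all genes (46.8% in either direction). Col18a1 was higher by 4.23-fold (log2 2.08 ± 0.27; limma adjusted p = 9.42e-07), and its call held in every alternative run. Col16a1 (1.45 ± 0.47; 0.0136), Col9a2 (at least 1.79-fold; 0.0177) and Col2a1 (−0.71 ± 0.29; 0.0494) also passed, and Col16a1 and Col2a1 arrays overlapped between the groups. With the replicate number as a block in the 8 lines whose same-numbered arrays deviated together, Col2a1 did not pass (limma adjusted p = 0.0621). The direction of Col9a2, kept through pluripotent arrays alone, again followed from the filter. Col4a1 and Col4a2 differed by 0.72 ± 0.36 and 0.73 ± 0.34 and did not pass. The count of 4 rested on single lines: it was 5 without gPSC[GSCneonatal]#2 (5 higher and 0 lower), 10 without gPSC[GSCadult]#1, 2 without GSC[neonatal] and 1 without GSC[adult]. Of 11 fibroblast markers 2 were higher and 0 lower in gPSC, and of 11 endoderm markers 4 were higher and 1 lower, and their part was not tested.

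Whether the pluripotent lines differed from their starting cells unequally was tested directly, as the iPSC[GSC] against GSC difference minus the iPSC[MEF] against MEF difference. It was above 0 for 9 of 23 collagens and below 0 for 0, against 15.4% and 18.4% of all genes (33.8% in either direction). The largest were Col1a1 (5.69 ± 1.04; limma adjusted p = 0.000183), Col4a1 (5.26 ± 0.68; 3.63e-06), Col4a2 (4.95 ± 0.65; 4.04e-06) and Col1a2 (4.81 ± 0.74; 2.49e-05). For the type IV chains both parts contribute, higher in iPSC[GSC] than in GSC and lower in iPSC[MEF] than in MEF, while for Col1a1 only the fibroblast part passed. MEF and iPSC[MEF] enter with 1 line each, and iPSC[MEF] is the one nearly equal to gPSC[GSCneonatal]#2. Col5a2 was tested here as well, with its higher MEF level fixed by the filter, and so were Col15a1 and Col4a5, which needed MEF to pass it.

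Comparisons of method, origin and ESC passed no collagen. Between iPSC[GSC] and gPSC, which asks whether the route to pluripotency matters, limma called 0 of 23 collagens and 0 of 9840 genes (0%), with 1 collagen and 491 genes at an unadjusted p under 0.05. That collagen was Col26a1, at 5.38 in iPSC[GSC] and 4.94 in gPSC (0.44 ± 0.15, SE; limma adjusted p = 0.742). Col6a1 averaged 7.41 ± 1.26 in iPSC[GSC] and 8.38 ± 1.85 in gPSC, and Col4a1 averaged 8.88 ± 0.61 and 7.92 ± 0.79 (SD, n = 4 clones each), with limma adjusted p of 0.77 and 0.742. For Col6a1 the spread among clones of a method exceeded the difference between methods. The count was 0 again without gPSC[GSCneonatal]#2.

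Between adult and neonatal clones limma called 0 collagens and 0 genes, with 1 collagen and 440 genes at an unadjusted p under 0.05. Col17a1 was that collagen, at 4.86 in adult and 5.85 in neonatal clones (−0.99 ± 0.28; limma adjusted p = 0.751). The test of whether the method difference depends on origin also called 0 collagens and 0 genes, with 0 and 161 unadjusted. Between reprogrammed cells and ESC limma called 0 collagens and 0.61% of all genes (0.213% higher and 0.396% lower), with 2 collagens and 618 genes at an unadjusted p under 0.05, Col26a1 (5.10 in reprogrammed lines, 5.92 in ESC; −0.82 ± 0.29) and Col5a1 (8.26 and 9.57; −1.31 ± 0.53). Without gPSC[GSCneonatal]#2 each of these 3 comparisons again called 0 collagens.

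Between sister clones of the same method and origin collagens passed, as did large shares of all genes. Outside gPSC[GSCadult] the share of collagens passing was near that of all genes. The spread in these comparisons is that between arrays of a line, so the tests describe these clones only and not a condition. In gPSC[GSCadult], clone #2 was higher than clone #1 for 15 of 23 collagens and lower for 0, against 20.5% and 29.4% of all genes (49.9% in either direction). Col23a1 was kept through the arrays of clone #2 alone, so its higher level in this clone followed from the filter. Col6a1 was 8.23-fold higher (log2 3.04 ± 0.09; limma adjusted p = 3.94e-16), Col6a2 6.53-fold (2.71 ± 0.15), Col3a1 6.04-fold (2.59 ± 0.19) and Col1a1 5.73-fold (2.52 ± 0.12). The type IV chains rose as well, Col4a2 by 2.97-fold and Col4a1 by 2.25-fold. All 11 fibroblast markers were higher in the same clone, with a mean log2 level of 8.34 in clone #2 and 6.08 in clone #1. Endoderm markers were higher for 8 of 11 and lower for 1, and the part of either marker list was not tested. Among 11 pluripotency markers 1 was higher and 6 lower in clone #2.

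In gPSC[GSCneonatal], clone #2 was higher than clone #1 for 8 collagens and lower for 5, against 27% and 27.3% of all genes (54.3% in either direction). Col3a1 (log2 2.81 ± 0.19), Col6a1 (2.57 ± 0.09) and Col16a1 (2.08 ± 0.09) were higher. Col4a1 (−1.53 ± 0.10), Col9a2 (−1.12 ± 0.16), Col17a1 (at least 1.94-fold) and Col4a2 (−1.03 ± 0.07) were lower. Col3a1 and the type VI genes were thus higher and both type IV genes lower in this clone, and 9 of 11 fibroblast markers were higher and 0 lower. Of 11 endoderm markers 4 were higher and 4 lower. Clone #2 is the line nearly equal to iPSC[MEF], and the comparison cannot be made without it.

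In iPSC[GSCneonatal], clone #2 was higher for 8 collagens and lower for 3, against 20.1% and 19.7% of all genes (39.8% in either direction). Col6a1 (2.98 ± 0.09), Col3a1 (at least 5.65-fold), Col1a1 (2.62 ± 0.12) and Col5a1 (2.25 ± 0.11) were higher, and Col4a2 (−0.99 ± 0.07), Col17a1 (−0.75 ± 0.13) and Col4a1 (−0.71 ± 0.10) were lower. Dimmer probes of Col6a1 and Col3a1 gave 0.48 and 0.49 in this pair, while a bright second probe of Col6a1 gave 2.92. Fibroblast markers were higher for 7 of 11 and lower for 0, and endoderm markers higher for 6 of 11 and lower for 2. In iPSC[GSCadult], clone #2 was higher for 7 and lower for 0, against 17.6% and 17.5% of all genes (35.1% in either direction). Col9a2 (1.38 ± 0.16), Col4a1 (1.30 ± 0.10) and Col4a2 (1.20 ± 0.07) led, Col5a1 and Col1a1 followed at 0.62 and 0.61, and here fibroblast markers were higher for 0 and lower for 5. Endoderm markers were higher for 7 of 11 and lower for 1 in this clone, and their part was not tested.

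**Figure D3:**
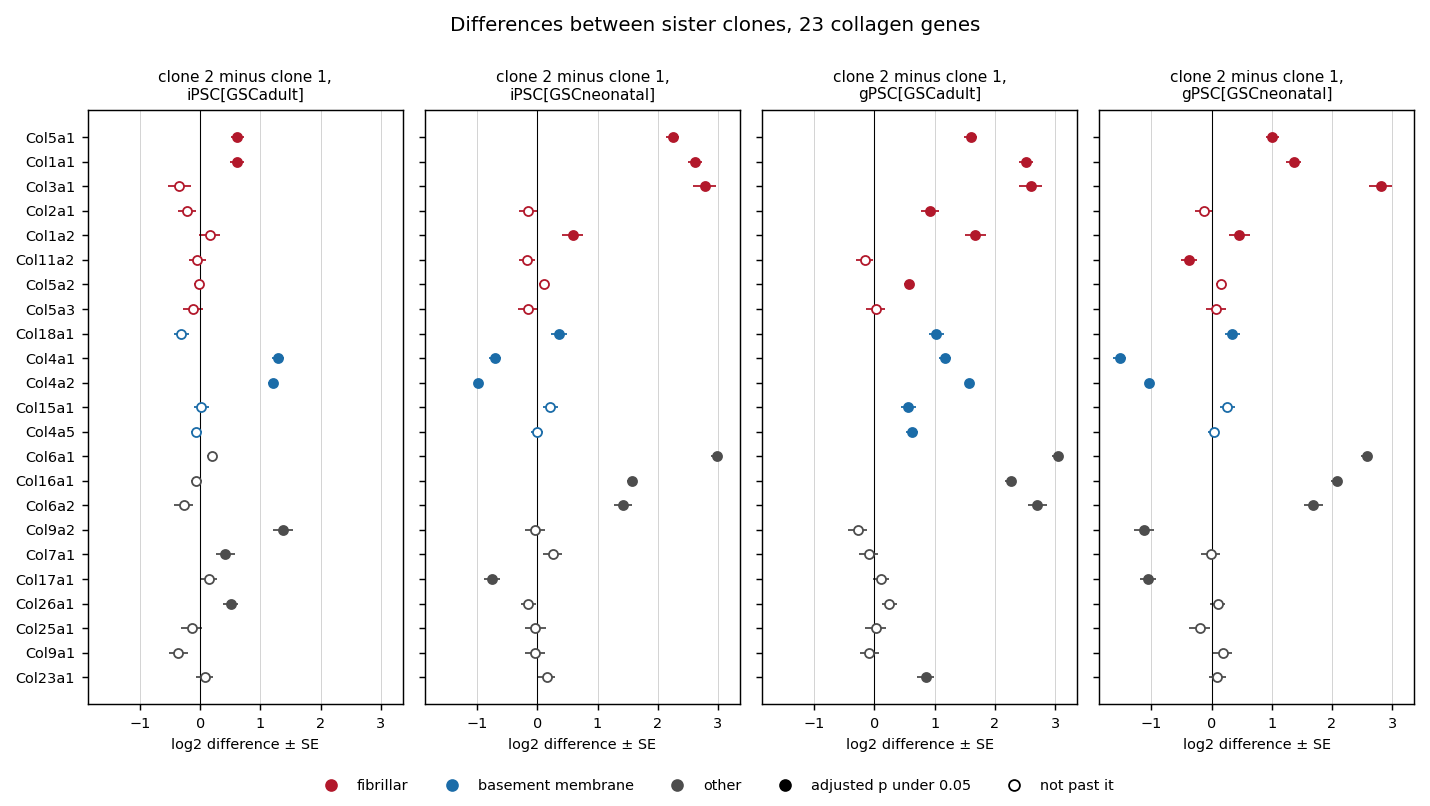
Log2 differences (± SE, horizontal axis) of the 23 kept collagens between sister clones, clone #2 minus clone #1, in the 4 pairs. Filled points passed a limma adjusted p under 0.05; in gPSC[GSCadult] all 15 filled points lie right of 0, while in both neonatal pairs Col4a1 and Col4a2 lie left of 0 and Col6a1 far right.

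Fewer collagens, and a smaller share of all genes, passed between GSC[adult] and GSC[neonatal]. GSC[adult] was lower than GSC[neonatal] for 5 collagens and higher for 0, against 5.93% and 5.27% of all genes (11.2% in either direction): Col4a1 by −0.79 ± 0.10, Col18a1 by −0.72 ± 0.13, Col6a1 by −0.70 ± 0.09, Col4a2 by −0.64 ± 0.07 and Col16a1 by −0.35 ± 0.09. The largest limma adjusted p of the 5 was 0.0147. Fibroblast markers were lower in the adult line for 4 of 11 and higher for 0, and age and line cannot be told apart.

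Over the 10 pluripotent lines, the levels of 8 collagens ran in parallel: Col1a1, Col1a2, Col3a1, Col5a1, Col15a1, Col16a1, Col6a1 and Col6a2. This group was chosen after its values were seen, and its correlations are a description over 10 lines that share arrays, normalisation and a few extreme clones. The 28 pairs had Pearson correlations of 0.8185 to 0.9855, and the lowest was 0.729 without gPSC[GSCadult]#2 and 0.8215 without gPSC[GSCneonatal]#2. Col15a1 was detected on 1 pluripotent array, of gPSC[GSCadult]#2, and Col1a2 on 5, so their correlations rest largely on levels at background. The value of 0.729 is that of Col15a1 with Col6a1. Col16a1 and Col6a2 were the most alike (0.9855), then Col3a1 and Col6a1 (0.9842) and Col5a1 and Col1a1 (0.9819). The group spans classes, since it holds fibrillar, type VI and fibre-associated collagens and Col15a1, of which Col6a1 and Col6a2 are neighbouring genes on chromosome 10. Of the 23 kept collagens 13 had their highest pluripotent level in gPSC[GSCadult]#2 and 7 their lowest in iPSC[GSCneonatal]#1. Col23a1, kept through gPSC[GSCadult]#2 alone, is among the 13.

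Col4a1 and Col4a2, whose shared start region is printed above, formed a separate pair with a correlation of 0.9537 (Spearman 0.8667), 0.978 without gPSC[GSCadult]#2 and 0.9476 without gPSC[GSCneonatal]#2. Col4a1 and Col9a2 correlated at 0.7987, and at 0.9286 and 0.7601 without those clones in turn. The mean level of the 11 fibroblast markers correlated over the same lines at 0.9628 with Col6a2, 0.9461 with Col16a1, 0.9378 with Col3a1 and 0.9356 with Col6a1. Without gPSC[GSCadult]#2 these were 0.9035, 0.8939, 0.9349 and 0.8985, and without gPSC[GSCneonatal]#2 they were 0.9617, 0.9429, 0.9341 and 0.9328. The values for Col1a1 and Col5a1 were lower, 0.8095 and 0.7292, and were 0.6453 and 0.5895 without gPSC[GSCadult]#2 and 0.8202 and 0.7423 without gPSC[GSCneonatal]#2. The basement membrane collagen Col18a1 correlated at 0.8677, and at 0.7795 and 0.8583 without those clones in turn. Col4a1 (−0.4356), Col4a2 (−0.242), Col9a2 (−0.693) and Col17a1 (−0.6588) ran the other way. Without gPSC[GSCadult]#2 these were −0.7803, −0.7783, −0.6082 and −0.7517, and without gPSC[GSCneonatal]#2 they were −0.3678, −0.1579, −0.6653 and −0.6392. The mean of 11 endoderm markers correlated with Col4a1 and Col4a2 at 0.6099 and 0.6641. It also correlated at 0.4986 with Col1a2, 0.4626 with Col1a1 and 0.4321 with Col6a1, and the lowest value was −0.2535 for Col11a2. These endoderm correlations were not computed without single clones.

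**Figure D4:**
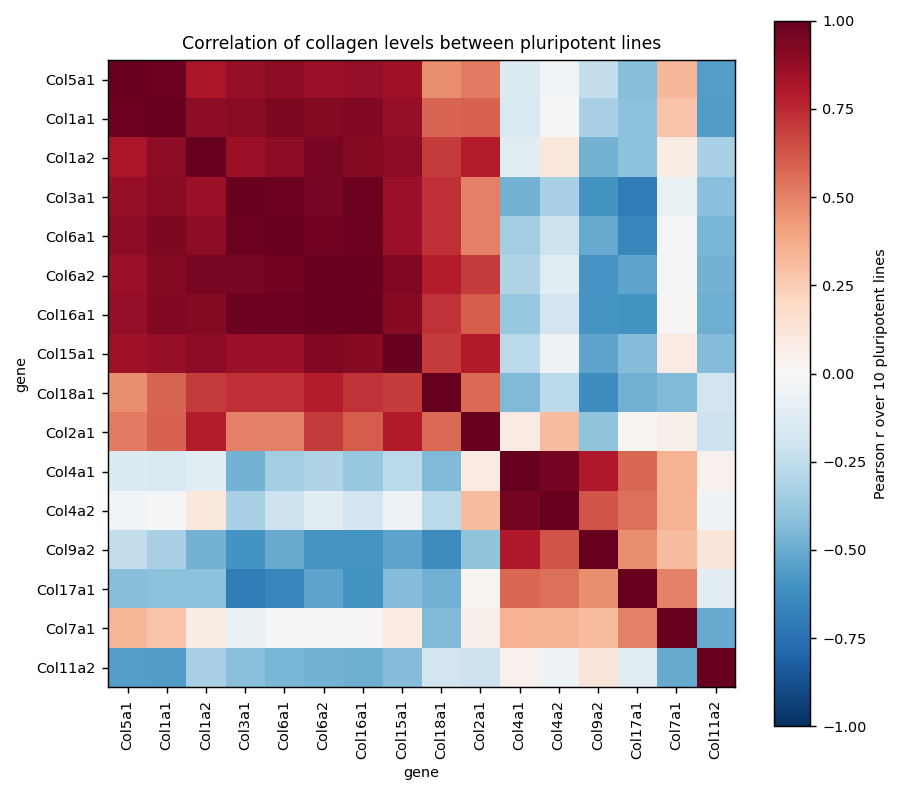
Pearson correlations between the same 16 collagens over the means of the 10 pluripotent lines, as a colour map with genes on both axes. A block of 8 genes lies at 0.8185 or above, and Col4a1 with Col4a2 stand outside it. In the block Col15a1 was detected on 1 pluripotent array and Col1a2 on 5.

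**Figure D5:**
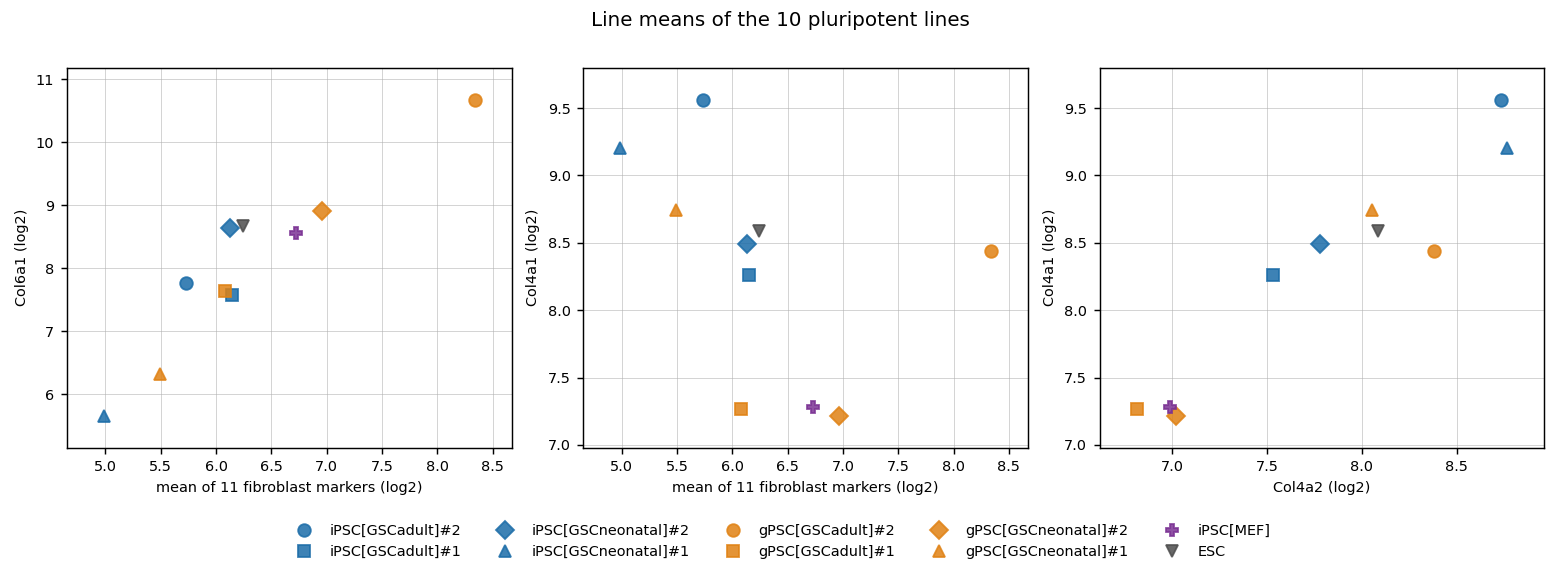
Line means of the 10 pluripotent lines on the log2 scale: Col6a1 and Col4a1 against the mean of 11 fibroblast markers, and Col4a1 against Col4a2. Col6a1 is highest in gPSC[GSCadult]#2, where the markers are highest too, Col4a1 is not, and the points of Col4a1 and Col4a2 lie near a line.

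The genes that make, cross-link, sense and break down collagen were followed in lists chosen by their known roles. Of 17 genes for folding and secretion, 11 were lower in iPSC[MEF] than in MEF and 1 higher, with a median of −1.62. Over all genes 15.1% were lower and 16.8% higher in this comparison. The lysine hydroxylase gene Plod3 differed by −2.01 ± 0.33 and P4hb, a subunit of prolyl hydroxylase, by −1.18 ± 0.25, while the calcium-store channel gene Tmem38b was higher (0.90 ± 0.32). All 8 trimming and cross-linking genes were lower, with a median of −2.64, among them Lox (−3.87 ± 0.76) and Loxl1 (−4.09 ± 0.72), which cross-link fibres, and Bmp1 (−2.86 ± 0.53) and Pcolce (−2.42 ± 0.56), which trim procollagen. All 4 receptor genes kept were lower, Itga11 by −4.17 ± 0.58, and so were 4 of 9 breakdown genes and inhibitors, such as Timp1 (−3.27 ± 0.69).

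In GSC against MEF the counts were 12 lower and 1 higher of 17, 8 lower of 8, 3 lower of 4 and 6 lower of 9 for the same lists, against 20.6% of all genes lower and 25.4% higher. Lox differed by −4.76 ± 0.66 and Loxl1 by −4.92 ± 0.63, while the collagen receptor gene Ddr1 (0.38 ± 0.28) did not pass. In iPSC[GSC] against GSC 6 folding genes were higher and 3 lower, 3 trimming genes were higher, and Ddr1 was lower (−1.95 ± 0.20), against 22.4% of all genes higher and 25.6% lower.

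Between the gPSC[GSCadult] clones, the genes around collagen differed by list. In clone #2 5 of 8 trimming and cross-linking genes were higher, Loxl1 by 2.64 ± 0.08 and Lox by 2.09 ± 0.11, and 0 lower. Of 9 breakdown genes and inhibitors 8 were higher, including Timp2 (3.32 ± 0.09), Mmp14 (2.79 ± 0.11) and Mmp2 (2.45 ± 0.09). Of 17 folding genes 6 were higher, with Plod3 (0.49 ± 0.10), and 3 lower, while P4hb (0.13 ± 0.08) did not pass. Those counts stand against 20.5% of all genes higher and 29.4% lower.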

How the data were processed

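Total RNA of 26 arrays (13 lines, 2 each) was labelled with a TotalPrep kit, per the labels' protocols. The deposited probe intensities are not normalised, and the deposited detection p-values accompany them, per the file headers. The authors also deposited log2 values normalised to one distribution, used here as an alternative; the submitters' processing notes name BeadStudio 3.2, RMA and lumi without roles. Intensities were background-corrected and quantile-normalised with neqc (limma 3.58.1, statmod 1.5.0, R 4.3.3; offset 16). The filter asked for 2 or more arrays with detection p below 0.01 and left 14517 of 25697 probes; the probe of highest mean stood for its gene (9840 genes). Symbols come from the platform annotation, with 23962 probes updated by Entrez ID; 23978 probes had 1 symbol and 1719 none or several.

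Comparisons of iPSC[GSC] with gPSC and of origin were fitted in limma on 8 clone means. Comparisons of cell types used all arrays with the line as a random block (correlation 0.812), and sister clones were compared over arrays. Adjusted p-values (Benjamini-Hochberg) cover all genes tested, with a threshold of 0.05, over 14 comparisons. Levels are log2 of normalised intensity and are not compared between probes. The number of arrays limits precision. Named are the 16 kept collagens of highest mean within their classes, every collagen where 5 or fewer passed, otherwise up to 4 with the largest difference each way, and up to 4 genes of a list; further names were chosen after their values were seen. The members and lists were chosen with earlier results of these data known. Scripts were tested on simulated data. Alternatives were background correction, scaling, filter, probe choice, the deposited matrix, a replicate block, and leaving out lines or replicates.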

Additional observations from a re-analysis of the deposited data

Results flagged for a closer look

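In the 4 gPSC clones, Col17a1 of gPSC[GSCneonatal]#1 stood apart at a log2 level of 5.95. Its gap to the nearest clone, divided by the range of the group, was 0.836, just over Dixon's critical value for 4 samples. It was the only one past that value of 32 gene and group combinations screened, and chance gives such a gap in about 1 in 20 groups.

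For 7 collagens described in full, the difference of iPSC[GSC] from GSC and that of iPSC[MEF] from MEF were unequal by the interaction test in limma. The log2 sizes were 5.69 for Col1a1, 5.26 for Col4a1, 4.95 for Col4a2, 4.81 for Col1a2, 4.18 for Col5a1, 3.81 for Col16a1 and 3.51 for Col7a1. In each of the 7 the iPSC[MEF] level was below the MEF level, and MEF and iPSC[MEF] are 1 line each.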

How the results depend on the processing

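Among recomputed counts of collagens past the threshold, 151 stayed within 1.5 times the count reported and 10 did not. Among recomputed differences of named collagens, 432 kept direction and call, 31 lost the call and 0 reversed. The 4 collagens of gPSC against GSC became 2 without background correction and 1 to 10 when a replicate or line was left out (1 without replicate 1, 2 without replicate 2, 10 without gPSC[GSCadult]#1, 2 without GSC[neonatal], 1 without GSC[adult]). The 13 of iPSC[MEF] against MEF became 7 to 8 with 1 replicate left out. The 9 of the interaction with starting cell became 14 under median scaling and 6 to 11 with a replicate or line left out, and the 0 of reprogrammed cells against ESC became 1 without the detection filter. Leaving out gave 11 to 15 for GSC against MEF and 5 to 8 for iPSC[GSC] against GSC. In gPSC against GSC, Col16a1 lost its call without gPSC[GSCneonatal]#2 (adjusted p = 0.0804), gPSC[GSCadult]#2 (0.08) or GSC[adult] (0.123). With the authors' deposited matrix the counts were 9 for iPSC[MEF] against MEF, 14 for GSC against MEF and 3 for gPSC against GSC. The cause of these changes was not tested.

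Arrays with the same replicate number deviated together at a correlation over 0.1 in 28 of 78 pairs of lines (−0.188 to 0.41). In the 28 pairs among the 8 lines outside iPSC[GSC] and MEF the correlation was 0.083 to 0.41, and in those lines the background median was 87.3 to 89.4 on replicate 1 arrays and 80.6 to 83.8 on replicate 2 arrays. The labels do not say what the number marks. With the replicate block over all lines the count for gPSC against GSC was 3 in place of 4, Col2a1 losing its call (adjusted p = 0.0531), and other counts of collagens were unchanged. With the replicate block in the 8 lines alone, chosen after seeing the data, it was 3 as well (Col2a1, 0.0621), 12 in place of 13 for iPSC[MEF] against MEF and 8 in place of 7 for the iPSC[GSCadult] clones. Slide and scan were not run as a block because the labels name neither, and sister clones were not refitted with 1 array a line. Collagens near background have compressed differences.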
